A study of Mus musculus with 2 samples.

Results

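The genes described here are those of the mouse major histocompatibility complex (MHC) whose symbols start with H2-, together with B2m, Tap1, Tap2, Tapbp, Cd74, Ciita and Nlrc5. The symbol rule found 29 genes among the 17608 of the expression table, 22 with H2- names and the 7 partners. Their level was followed in erythroid progenitors of C57BL/6 fetal liver at embryonic stage E14.5, with and without the cells that carried 5 or more Mpo UMIs. Mpo encodes myeloperoxidase, a granule enzyme of granulocyte progenitors, and a UMI is a tag that marks 1 captured RNA molecule.

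Class I MHC molecules stand on nearly all nucleated cells and show peptides from inside the cell to cytotoxic T cells and natural killer cells. They consist of a heavy chain and the light chain B2m, and are filled in the endoplasmic reticulum with peptides that the proteasome cuts and the TAP transporter carries in. Class II molecules hold peptides from taken-up material, are guarded by the invariant chain Cd74 and are usually made by antigen-presenting cells under the master regulator Ciita. In fetal liver, erythroid progenitors arise from the multipotent cells that also give rise to granulocytes and monocytes.

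Single cells were profiled with a 3' counting kit in 2 libraries, all from cells described as CD71/CD24 low. The hashed library held 904 cells, and the deposited cell annotation splits them into pools named FACS CFU-E (167 cells), FACS BFU-E (233), PE-high (294) and PE-low (208), with 2 cells left without a name. The CITE-seq library, stained for CD117 and CD71, held 2453 cells, named CS CFUE (195 cells), CS BFUE (122) or unknown (2136). BFU-E are early and CFU-E later colony-forming erythroid progenitors. FACS is antibody-based cell sorting, and the labels name a magnet method beside it. The labels and files used here do not say what PE and CS stand for or which steps gave those names. PE-high was set beside the CFU-E pools as a later pool and PE-low beside the BFU-E pools as an earlier one. The labels state no stage for the PE pools. Levels are CPM, the UMIs of a gene per 1e6 UMIs of its pool. The summed level of 9 erythroid markers was 1818, 2299 and 1483 CPM in FACS CFU-E, PE-high and CS CFUE, against 560, 640 and 465 CPM in FACS BFU-E, PE-low and CS BFUE. Whether the sequenced cells had passed through the expansion culture with dexamethasone or methanol that the labels describe is not given.

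Each pool was 1 sample, so no comparison has a replicate check and none carries a p-value. Intervals are exact 95% intervals for the counting of UMIs and cover counting error only. The hashed library held 31719814 UMIs and the CITE-seq library 72553258. The median cell held between 23449 UMIs in CS BFUE and 38664 in PE-high, and the libraries shared 0 cell barcodes. Markers of other cell types moved with stage. Cells with 5 or more Mpo UMIs made up 0%, 5.78% and 1.54% of FACS CFU-E, PE-high and CS CFUE, against 32.2%, 21.2% and 28.7% of FACS BFU-E, PE-low and CS BFUE. The summed level of 7 granulocyte progenitor markers was 7.86, 184 and 14.1 CPM in the later pools, against 1340, 724 and 634 CPM in the earlier ones. For 11 monocyte and macrophage markers it was 3.37, 46.3 and 5.74 CPM in the later pools, against 97.8, 193 and 39.1 CPM in the earlier ones. For 8 dendritic cell markers it was 112, 154 and 119 CPM in the later pools, against 308, 395 and 226 CPM in the earlier ones. That list includes Cst3, which is not confined to dendritic cells here. A PE-low cell and a CS BFUE cell with UMIs of the erythroid genes Klf1 and Gata1 held 4 and 10 UMIs of the list, all of Cst3. The dendritic sum therefore does not measure dendritic cells alone, and the part of Cst3 in it was not tested. The stage comparison is therefore also a comparison of cell mixtures, so stage ratios of the members are also given without the Mpo cells.

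The promoters of 4 members are printed because their levels frame the results: H2-D1 and B2m were read in every pool, Tap1 had the widest stage contrast of the class I genes at 5 CPM or more, and H2-Aa had 0 UMIs in every named pool. Each line gives the 250 bases before the gene's start from RefSeq, build GRCm38.p6, 5′ to 3′ on the gene's own strand, and the capitals mark matches to the 4 motifs described next. H2-D1 lies at chr17:35262844-35263093 (plus strand), B2m at chr2:122147437-122147686 (plus), Tap1 at chr17:34187306-34187555 (plus) and H2-Aa at chr17:34287824-34288073 (minus).
H2-D1: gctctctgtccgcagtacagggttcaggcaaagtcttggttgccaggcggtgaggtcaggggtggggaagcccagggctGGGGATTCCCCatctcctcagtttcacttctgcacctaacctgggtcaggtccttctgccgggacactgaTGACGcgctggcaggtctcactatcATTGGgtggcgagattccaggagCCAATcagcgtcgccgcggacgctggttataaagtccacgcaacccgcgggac
B2m: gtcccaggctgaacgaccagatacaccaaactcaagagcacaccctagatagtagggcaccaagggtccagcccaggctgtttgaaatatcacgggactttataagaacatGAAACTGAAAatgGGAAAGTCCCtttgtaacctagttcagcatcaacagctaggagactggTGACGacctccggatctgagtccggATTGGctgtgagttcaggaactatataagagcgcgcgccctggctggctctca
Tap1: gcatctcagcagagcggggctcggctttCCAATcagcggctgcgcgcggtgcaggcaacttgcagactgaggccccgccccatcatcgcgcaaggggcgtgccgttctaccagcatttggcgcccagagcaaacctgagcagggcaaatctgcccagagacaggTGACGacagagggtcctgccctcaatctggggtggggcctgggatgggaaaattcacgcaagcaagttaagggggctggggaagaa
H2-Aa: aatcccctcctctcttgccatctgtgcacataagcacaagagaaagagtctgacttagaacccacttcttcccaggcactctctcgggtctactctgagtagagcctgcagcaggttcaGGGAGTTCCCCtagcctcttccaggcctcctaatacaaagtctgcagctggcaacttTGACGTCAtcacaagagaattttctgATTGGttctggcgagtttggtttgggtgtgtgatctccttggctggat

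Promoters of MHC genes are known for an upstream block of an NF-kappaB site and an interferon-stimulated response element (ISRE), and for a downstream block of X and Y boxes that the Rfx and Nfy factors and Nlrc5 or Ciita occupy. The motifs searched on both strands were GAAANNGAAA (the core of the ISRE), TGACG (the core of the X2 box), CCAAT (the Y box) and NF-kappaB, named only. RefSeq windows were at hand for 22 of the 29 members, and not for Ciita, Tap2, Cd74, H2-T24, H2-Ab1, Nlrc5 and H2-Q1. CCAAT stood in 21 of the 24 windows of these members, for 20 of the 22 members, against 33.8% of all 32851 windows in the table. TGACG stood in 10 of 24 windows (9 of 22 members), against 17.8% of all windows. NF-kappaB also stood in 10 of 24 windows (9 of 22 members), against 7.25%. GAAANNGAAA stood in 3 of 24 windows, those of B2m, H2-T22 and H2-T23, against 2.98% of all windows. Several members are duplicates of each other, so their windows are not independent.

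B2m held all 4 motifs, in the order ISRE core from -139, NF-kappaB from -126, X2 core from -78 and Y box from -53, counted in bases before the start. H2-D1 held NF-kappaB, the X2 core from -101 and CCAAT at -76 and -53. In H2-D1 and H2-Aa the NF-kappaB capitals are 2 overlapping matches. H2-K1, the other classical class I gene, also held NF-kappaB, TGACG and CCAAT. Its windows lie inside the gene's own RefSeq bounds and are not printed. Tap1 held TGACG from -86 and CCAAT from -222. H2-Aa held the same downstream pair as B2m, 2 overlapping X2 cores on opposite strands from -74 and -71 and CCAAT from -48. A motif match describes letters only, not a bound site.

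**Figure D1:**
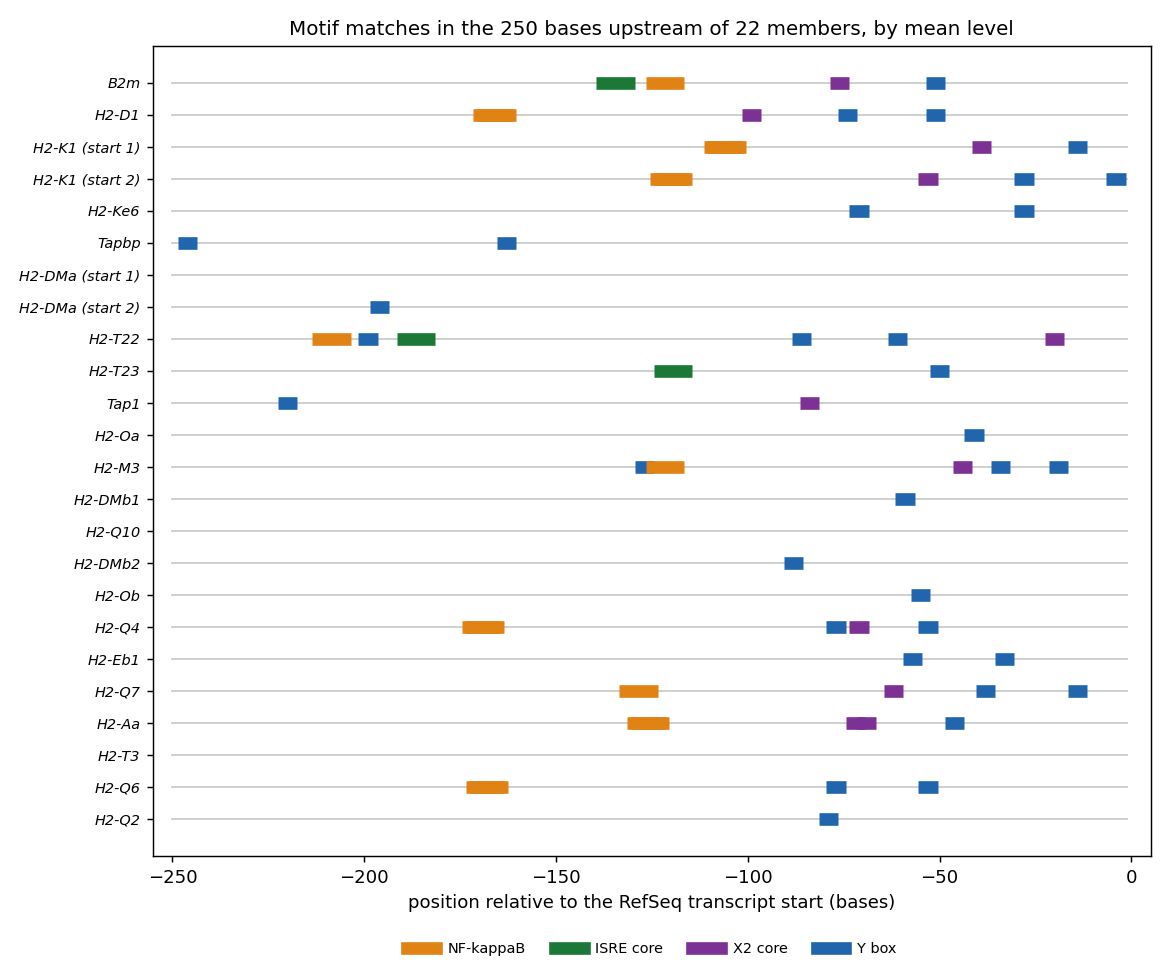
Positions of the 4 motifs in the 250 bases before the start of the members with a RefSeq window, on an x axis of bases relative to the start, with 1 row per window. CCAAT was found for 20 of 22 members and GAAANNGAAA for 3, B2m, H2-T22 and H2-T23.

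Of the 29 members, 25 lie on chromosome 17 between 33919478 and 37274485 of GRCm38.p6. B2m (chromosome 2), Nlrc5 (8), Ciita (16) and Cd74 (18) lie elsewhere. In the 6 named pools, 4 members had a mean level of at least 20 CPM: B2m, H2-D1, H2-K1 and H2-Ke6. Another 10 lay between 1 and 20 CPM, and 15 lay under 1 CPM with 104 UMIs in all. B2m, H2-K1 and H2-D1 together held 71.2% of the 15783 UMIs of all members. The kit counts 1 end per molecule, so these shares are of molecules captured and were not divided by length. H2 class I genes share long stretches of sequence, and the sources do not say how reads that fit several copies were counted. Values of single H2-D, H2-K, H2-Q and H2-T genes are uncertain in that respect.

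**Figure D2:**
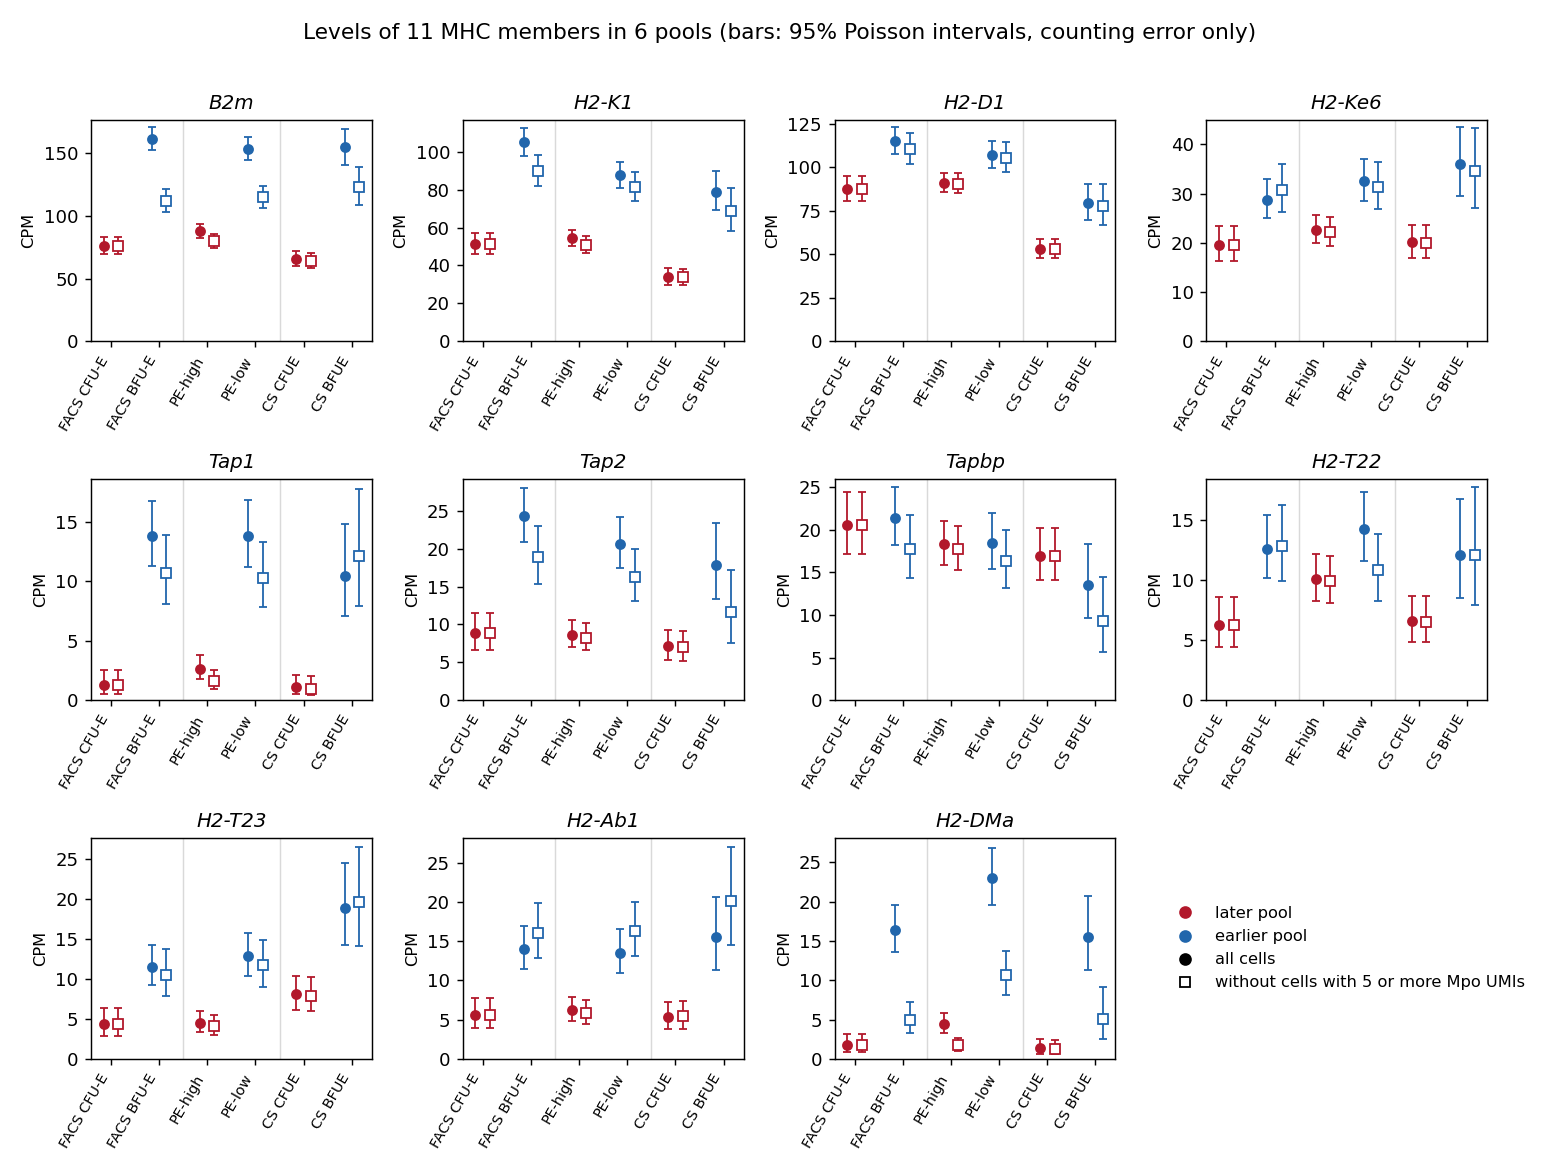
Level of 11 members in CPM (linear axis) in each pool, later pool left of its earlier pool, with filled circles for all cells, open squares for cells without the Mpo cells, and exact 95% Poisson intervals as bars. With all cells, B2m is at 65.6 to 88.0 CPM in the later pools and at 154 to 162 CPM in the earlier ones.

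B2m, the class I light chain, and H2-K1 were lower in every later pool than in any earlier pool. B2m was at 76.1, 88.0 and 65.6 CPM in FACS CFU-E, PE-high and CS CFUE, against 162, 154 and 155 CPM in FACS BFU-E, PE-low and CS BFUE. The ratio of later to earlier was 0.471 (95% interval 0.422 to 0.524) in the FACS pair, 0.572 (0.524 to 0.625) in the PE pair and 0.423 (0.372 to 0.482) in the CS pair. The B2m groups did not overlap, and the 3 earlier pools were within 10 CPM of each other. The B2m contrast was smaller without the Mpo cells, when B2m was at 76.1, 79.8 and 64.2 CPM in the later pools, against 112, 115 and 123 CPM in the earlier ones, at ratios of 0.677, 0.695 and 0.521. The groups still did not overlap, but the FACS and PE ratios were inside 1.5-fold.

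H2-K1, a classical class I heavy chain, was at 51.3, 54.3 and 34.0 CPM in the later pools, against 105, 87.5 and 78.8 CPM in the earlier ones. Its ratios were 0.489 (0.428 to 0.558), 0.621 (0.554 to 0.696) and 0.432 (0.360 to 0.518) in the FACS, PE and CS pairs. H2-K1 was lower past 1.5-fold in each pair, and its groups did not overlap. Its ratios without the Mpo cells were 0.570, 0.624 and 0.493, and all 3 stayed past 1.5-fold. In the PE pair the call was lost when pools were scaled by the median ratio over genes or by trimmed means.

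H2-D1, the other classical heavy chain, was at 87.6, 91.2 and 53.0 CPM in the later pools, against 115, 107 and 79.5 CPM in the earlier ones. Its groups overlapped, since FACS CFU-E and PE-high both lay above CS BFUE. The ratios were 0.759 (0.681 to 0.846), 0.851 (0.773 to 0.936) and 0.667 (0.566 to 0.787), all inside 1.5-fold, the CS pair by a narrow margin. Each interval excluded 1, and the ratios without the Mpo cells were 0.793, 0.860 and 0.683. Both heavy chains were lower in the CS pools than in the FACS pools of the same name. The library and the naming of the pools cannot be told apart there.

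H2-Ke6, which lies in the MHC but encodes an enzyme of lipid metabolism, was at 19.6, 22.6 and 20.1 CPM in the later pools, against 28.7, 32.5 and 36.0 CPM in the earlier ones. The groups did not overlap, and the ratios were 0.681, 0.697 and 0.557 (0.431 to 0.722 for the CS pair). Only the CS ratio was past 1.5-fold. The FACS ratio was past it too, at 0.636, without the Mpo cells.

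At a mean level of at least 20 CPM in the pair, 2 of 5 members were past 1.5-fold lower in FACS CFU-E than in FACS BFU-E, where 10.2% of all genes compared were. In PE-high over PE-low it was 2 of 4 (7.55% of all genes), and in CS CFUE over CS BFUE 3 of 4 (9.38%). The share of all genes past 1.5-fold higher was 8.66%, 5.87% and 9.99% in the FACS, PE and CS pairs, and 0 members were. The median log2 ratio of the members compared was -0.55, -0.60 and -1.03, beside 0.02, 0.00 and 0.05 over all genes. At a minimum of 5 CPM, 8 of 11 members were lower in the FACS pair (17.1% of all genes), 7 of 11 in the PE pair (14.1%) and 9 of 11 in the CS pair (16.6%). Tap1 and H2-DMa in each pair, and H2-T23 in the FACS and PE pairs, passed only through the earlier pool. They were under 5 CPM in the later pool.

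With the Mpo cells left out, 2 of 4 members at 20 CPM or more were lower past 1.5-fold in the FACS pair (7.52% of all genes), 1 of 4 in the PE pair (6.24%) and 3 of 4 in the CS pair (7.36%). These were H2-K1 and H2-Ke6 in the FACS pair, H2-K1 in the PE pair, and both with B2m in the CS pair. In the FACS pair H2-Ke6 passed the minimum only through FACS BFU-E, at 30.8 CPM, against 19.6 CPM in FACS CFU-E. At 5 CPM or more, 7 of 10 members were lower past 1.5-fold in the FACS pair (13.2% of all genes), 6 of 11 in the PE pair (12.1%) and 8 of 10 in the CS pair (14.1%). Tap1 in each pair, H2-T23 in the FACS and PE pairs and H2-DMa in the PE pair were under 5 CPM in the later pool. They passed only through the earlier pool, so these counts favour calls of lower. In the CS pair, Tapbp was then higher past 1.5-fold, as were 9.84% of all genes. Over all 6 pools, 3 of 4 members at 20 CPM or more had every later pool below every earlier one (17% of all genes), namely B2m, H2-K1 and H2-Ke6. At 5 CPM or more it was 9 of 11 (22.6%), the exceptions being H2-D1 and Tapbp. With the Mpo cells left out it was 3 of 4 at 20 CPM or more (15.3%) and 8 of 10 at 5 CPM or more (19.9%). In these counts at 5 CPM, Tap1 in both sets of cells and H2-DMa with all cells were under 5 CPM in every later pool. They passed only through the earlier pools, which favours calls of lower.

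**Figure D3:**
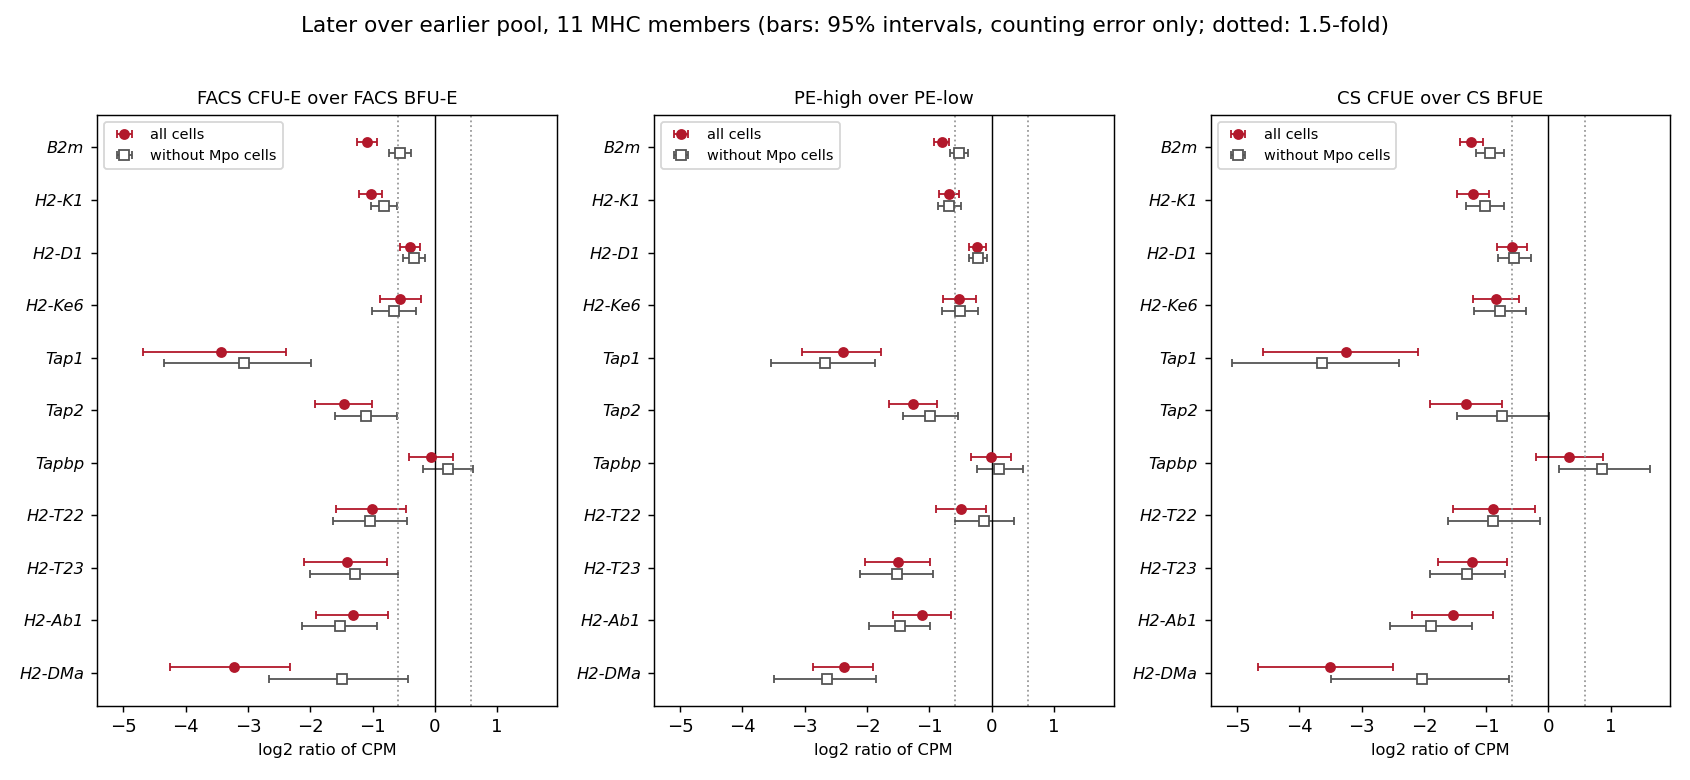
Log2 ratio of the later over the earlier pool for the members at 5 CPM or more, for all cells and without cells with 5 or more Mpo UMIs; bars are exact 95% intervals for counting error. Tap1 stays far below 0 in both sets of cells, at ratios of 0.0802 to 0.191, while Tapbp lies near or above 0.

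The genes that load class I molecules did not move as a block. Tap1 and Tap2 are the subunits of the peptide transporter, and Tapbp is tapasin, which holds the empty class I molecule beside it. Tap1 was at 1.28, 2.64 and 1.09 CPM in the later pools, against 13.8, 13.8 and 10.4 CPM in the earlier ones. This was the widest stage contrast among the class I members at 5 CPM or more, with ratios of 0.0928 (0.0390 to 0.190), 0.191 (0.121 to 0.291) and 0.105 (0.0416 to 0.233). The groups were far apart, and without the Mpo cells the Tap1 ratios were 0.120, 0.156 and 0.0802.

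Tap2 was at 8.83, 8.63 and 7.11 CPM in the later pools, against 24.3, 20.6 and 17.9 CPM in the earlier ones. Its ratios were 0.364 (0.264 to 0.494), 0.419 (0.320 to 0.546) and 0.398 (0.266 to 0.595), so the contrast was smaller than that of Tap1 in each pair, with intervals that did not overlap those of Tap1. The Tap2 ratios without the Mpo cells were 0.466, 0.505 and 0.596. Tapbp was at 20.5, 18.4 and 16.9 CPM in the later pools, against 21.4, 18.5 and 13.5 CPM in the earlier ones. Its groups overlapped, and its ratios were 0.959, 0.993 and 1.26, each with an interval that included 1. Without the Mpo cells the Tapbp ratios lay above 1, at 1.16 (0.878 to 1.53) and 1.09 (0.845 to 1.42) in the FACS and PE pairs and 1.82 (1.13 to 3.08) in the CS pair.

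The nonclassical class I genes are less variable relatives of the classical ones, and 11 of the members belong to them. H2-T22 and H2-T23 were the most abundant. H2-T23 encodes Qa-1, a ligand of natural killer receptors, and was at 4.33, 4.54 and 8.06 CPM in the later pools, against 11.5, 12.9 and 18.9 CPM in the earlier ones. Its groups did not overlap, at ratios of 0.376 (0.234 to 0.585), 0.354 (0.245 to 0.505) and 0.427 (0.291 to 0.627), and 0.412, 0.348 and 0.404 without the Mpo cells. H2-T22, a ligand of some gamma-delta T cells, was at 6.26, 10.1 and 6.56 CPM in the later pools, against 12.6, 14.3 and 12.1 CPM in the earlier ones. Its ratios were 0.496, 0.708 and 0.541, and the PE ratio without the Mpo cells was 0.919. H2-M3, which presents formylated peptides, ranged from 0.273 to 2.44 CPM over the 6 pools. In RefSeq H2-T22, H2-T23 and H2-T24 overlap another annotated gene, A930015D03Rik.

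The other nonclassical genes were close to the detection limit. H2-T24 had 30 UMIs in the 6 named pools, H2-Q10 16, H2-Q4 10 and H2-Q7 1. H2-T3, H2-Q1, H2-Q2 and H2-Q6 had 0, and a count of 0 allowed up to 0.481, 0.273 and 0.410 CPM in FACS CFU-E, PE-high and CS CFUE, against 0.407, 0.423 and 1.01 CPM in FACS BFU-E, PE-low and CS BFUE. Nlrc5, the known activator of class I genes, had 1 UMI in the named pools and 4 in the 2136 unnamed cells. Depth limits what can be said of it.

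Class II chains were nearly absent, with H2-Ab1 as the exception. H2-Ab1 encodes the beta chain of the class II molecule I-A, whose alpha chain is H2-Aa. H2-Ab1 was at 5.62, 6.27 and 5.33 CPM in FACS CFU-E, PE-high and CS CFUE, against 14.0, 13.6 and 15.5 CPM in FACS BFU-E, PE-low and CS BFUE. Its groups did not overlap, and the ratios were 0.402 (0.266 to 0.595), 0.463 (0.335 to 0.637) and 0.344 (0.219 to 0.539). The contrast was wider without the Mpo cells, at 0.350, 0.360 and 0.270.

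In the 1219 cells of the named pools, H2-Ab1 had 388 UMIs spread over 273 cells. The same cells held 0 UMIs of H2-Aa, 4 of H2-Eb1, the beta chain of I-E, and 15 of Cd74. Ciita had 0. The reads counted as H2-Ab1 could not be inspected, so which transcript they came from was not tested. In the 2136 unnamed cells of the CITE-seq library, 2 cells, picked here because they held the most class II UMIs, carried 126 of the 137 UMIs of H2-Aa. The pair also carried 125 of 478 UMIs of H2-Ab1, 184 of 235 of Cd74, 53 of 61 of H2-Eb1 and 8 of 10 of Ciita. They held 0 UMIs of Klf1, Gata1 and Mpo. The remaining 2134 unnamed cells held 353 UMIs of H2-Ab1 in 270 cells and 11 of H2-Aa in 7. Of 8 dendritic cell markers, 3, 8 and 5 had a UMI in FACS CFU-E, PE-high and CS CFUE, against 7, 8 and 5 in FACS BFU-E, PE-low and CS BFUE.

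**Figure D4:**
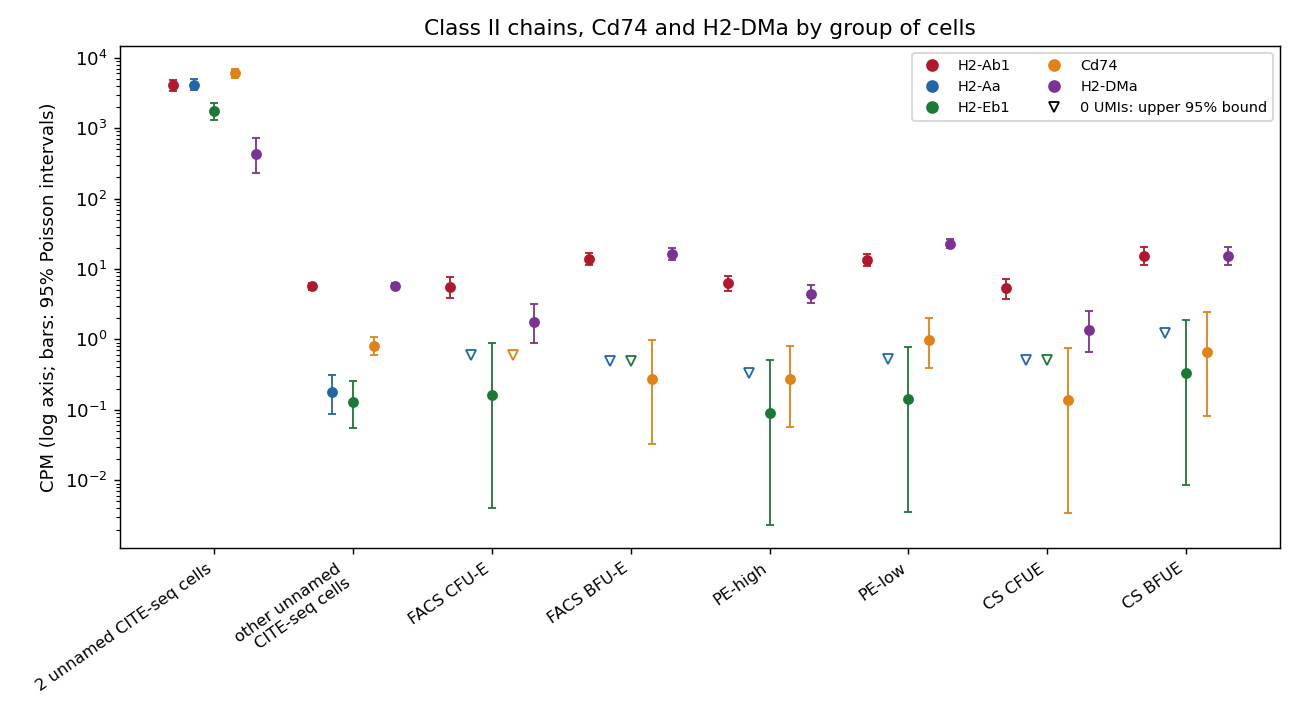
Level in CPM (log axis) of the class II chains, Cd74 and H2-DMa in the 2 unnamed cells with the most class II UMIs, in the other unnamed cells and in each named pool, with exact 95% Poisson intervals as bars and open triangles as upper bounds for 0 UMIs. H2-Ab1 lies at 5.33 to 15.5 CPM in the named pools, where H2-Aa has 0 UMIs, while the 2 cells hold both chains at 4103 and 4135 CPM.

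H2-DMa and H2-DMb1 encode the exchange factor that loads peptides onto class II molecules, and H2-Oa and H2-Ob its inhibitor. H2-DMa was at 1.77, 4.45 and 1.37 CPM in the later pools, against 16.4, 23.0 and 15.5 CPM in the earlier ones. The groups did not overlap, at ratios of 0.108 (0.0523 to 0.199), 0.194 (0.138 to 0.268) and 0.0882 (0.0397 to 0.177). Without the Mpo cells the ratios were 0.355, 0.160 and 0.244, with the earlier pools then at 4.97, 10.6 and 5.13 CPM. In RefSeq H2-DMa overlaps Brd2, which was at 128, 123 and 82.0 CPM in the later pools, against 122, 119 and 74.4 CPM in the earlier ones. Brd2 did not show the contrast of H2-DMa, and the part of the overlap in the H2-DMa counts was not tested.

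The partners of H2-DMa were scarce. H2-DMb1 was at 0, 0.364 and 0 CPM in the later pools, against 2.58, 2.54 and 2.02 CPM in the earlier ones. H2-Oa was at 0, 0.727 and 0 CPM in the later pools, against 2.17, 2.68 and 2.69 CPM in the earlier ones. Both were lower in each later pool. H2-DMb2 had 15 UMIs and H2-Ob 12 in the 6 pools, most of them in PE-low and FACS BFU-E.

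Inside the earlier pools, the Mpo cells differed from the other cells of the same pool in B2m, the loading genes and H2-DMa. The summed erythroid markers were at 69.5, 27.7 and 94.4 CPM in the Mpo cells of FACS BFU-E, PE-low and CS BFUE, against 762, 797 and 608 CPM in their other cells. B2m was at 282, 306 and 237 CPM in the Mpo cells, against 112, 115 and 123 CPM in the other cells. The ratios were 2.51 (2.23 to 2.81), 2.66 (2.35 to 3.01) and 1.93 (1.59 to 2.33), so B2m was higher in the Mpo cells of each pool. H2-K1 was at 141, 111 and 105 CPM in the Mpo cells, against 90.0, 81.5 and 68.6 CPM in the other cells, at ratios of 1.57, 1.36 and 1.54. H2-D1 was nearly level, at ratios of 1.15, 1.08 and 1.07 whose intervals all included 1.

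The transporter and tapasin were higher in the Mpo cells. Tap2 was at 37.3, 37.4 and 33.9 CPM in the Mpo cells, against 18.9, 16.3 and 11.7 CPM in the other cells. Tapbp was at 30.3, 27.0 and 24.2 CPM in the Mpo cells, against 17.8, 16.3 and 9.33 CPM in the other cells. Every Mpo group of these genes lay above every other-cell group. Tap1 was higher in the Mpo cells of FACS BFU-E and PE-low but not of CS BFUE, where the Mpo cells held 5 UMIs of it. It was at 21.5, 27.7 and 6.05 CPM in the Mpo cells, against 10.7, 10.3 and 12.1 CPM in the other cells, and the CS ratio of 0.499 had an interval of 0.150 to 1.32. Outside the earlier pools, Tap1 was at 27.9 CPM in the Mpo cells of PE-high, against 1.61 CPM in its other cells. In the unnamed CITE-seq cells these levels were 17.9 and 2.57 CPM. H2-T22 was higher past 1.5-fold in the Mpo cells of PE-low, at 2.57 (1.68 to 3.89), and at 0.947 and 0.998 in those of FACS BFU-E and CS BFUE.

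The class II genes went opposite ways in the split. H2-DMa was at 44.3, 71.4 and 42.4 CPM in the Mpo cells, against 4.97, 10.6 and 5.13 CPM in the other cells. Its ratios were 8.92 (5.73 to 14.3), 6.72 (4.84 to 9.40) and 8.26 (4.10 to 18.0). Mpo cells held 78.5%, 63.2% and 76.1% of the H2-DMa UMIs of FACS BFU-E, PE-low and CS BFUE, while they held 29.1%, 20.4% and 27.8% of all UMIs there. H2-Ab1 was lower in the Mpo cells, at 8.87, 2.77 and 3.63 CPM, against 16.1, 16.3 and 20.1 CPM in the other cells. Its ratios were 0.552 (0.317 to 0.916), 0.170 (0.0454 to 0.451) and 0.181 (0.0359 to 0.566). H2-DMa and H2-Ab1 had similar totals over the 6 pools, 400 and 388 UMIs, and lay on different sides of the split in the earlier pools. In PE-high H2-Ab1 went the other way. It was at 16.3 CPM (6.54 to 33.5, from 7 UMIs) in the 17 Mpo cells, against 5.86 CPM in the other cells. The 3 Mpo cells of CS CFUE held 0 UMIs of it. Mpo cells held 0.628% of its UMIs in the unnamed CITE-seq cells, beside 2.61% of all UMIs.

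At 20 CPM or more, 5 of 7 members were past 1.5-fold higher in the Mpo cells of FACS BFU-E (11.7% of all genes), 4 of 7 in PE-low (12.6%) and 4 of 6 in CS BFUE (12.5%). The minimum is on the mean, so H2-DMa and Tap2 passed it in each pool only through the Mpo cells. Tapbp did so in FACS BFU-E and PE-low. These genes were under 20 CPM in the other cells, so the counts favour calls of higher. The called members at 20 CPM or more in both groups were B2m in each pool and H2-K1 in FACS BFU-E and CS BFUE. At 5 CPM or more, 6, 6 and 5 of 11 members were higher in these pools, beside 17.1%, 17.7% and 18.5% of all genes. H2-Ab1 was lower past 1.5-fold in each, and Tap1 in CS BFUE, so 1, 1 and 2 of 11 members were lower, beside 12%, 15.3% and 15% of all genes. H2-DMa in FACS BFU-E passed the 5 CPM minimum only through the Mpo cells. H2-Ab1 in PE-low and CS BFUE passed it only through the other cells. The Mpo cells also carried monocyte and macrophage markers at a sum of 300, 714 and 107 CPM, against 15.1, 60.1 and 13.1 CPM in the other cells. Of the 11 markers on that list 8, 9 and 6 had a UMI in the Mpo cells, against 7, 9 and 5 in the other cells. When cells with 5 or more monocyte marker UMIs were left out, the H2-DMa log2 ratio was 3.14, 3.20 and 3.07 in FACS BFU-E, PE-low and CS BFUE, and that of B2m 1.28, 1.52 and 1.11. Both ratios were thus about as large without those cells. Tapbp in FACS BFU-E was not, at a log2 ratio of 0.16 without them and 0.77 with them. The count in FACS BFU-E was then 3 members, B2m, H2-K1 and Tap2, as H2-DMa was under 20 CPM.

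**Figure D5:**
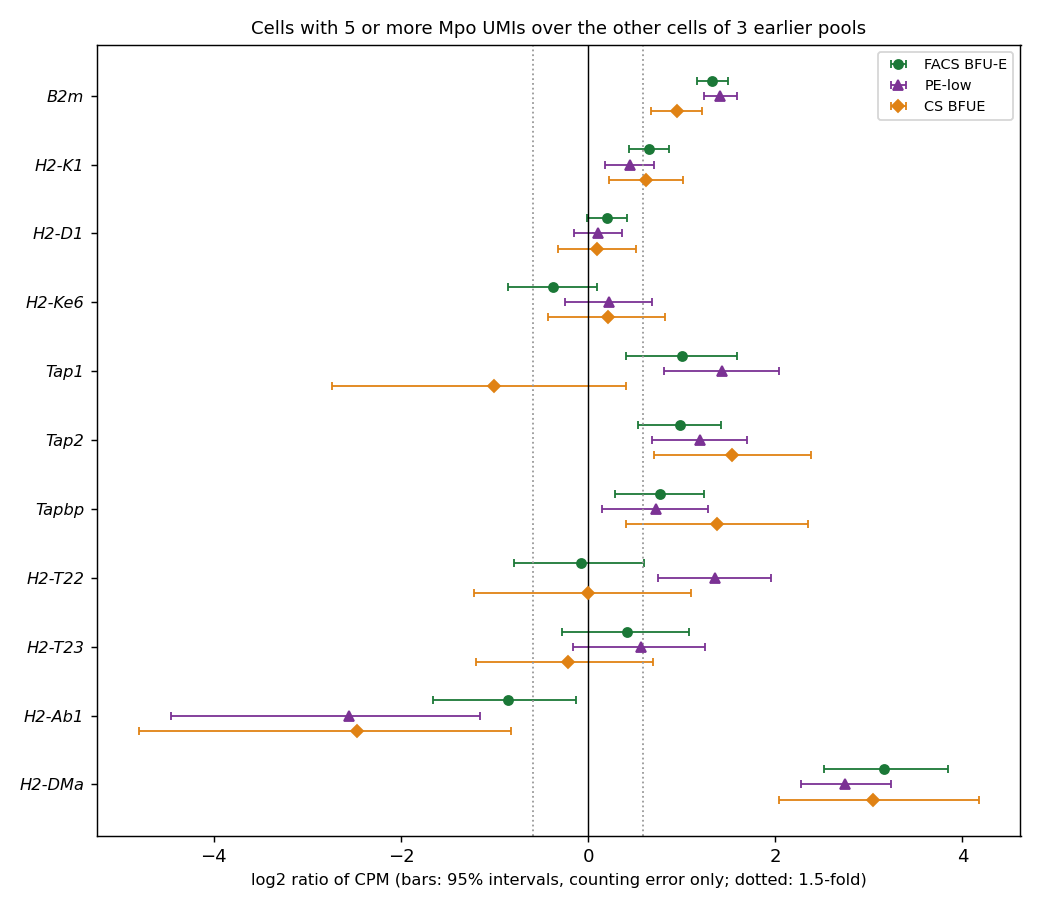
Log2 ratio of CPM in cells with 5 or more Mpo UMIs over the other cells of the same pool for 11 members, with exact 95% intervals for counting error as bars, 1 colour per pool and dotted lines at 1.5-fold. H2-DMa lies at log2 ratios of 2.75 to 3.16 and H2-Ab1 below 0 in all 3 pools.

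Shares of cells with a UMI were taken at a fixed depth, with 8 cells of FACS BFU-E and 3 of PE-low left out as too shallow. B2m was seen in 83.6% of FACS BFU-E cells and 84.9% of PE-low cells after each cell was thinned to 15000 UMIs, and in 95.7% and 95.2% at full depth. H2-Ab1 was seen in 18.2% and 15.6% of the thinned cells of FACS BFU-E and PE-low, and in 29.6% and 29.3% at full depth. Among the Mpo cells of PE-low it was seen in 2.27% of the thinned cells, against 19.3% of the other thinned cells, with median depths of 33129 and 35691 UMIs before thinning. H2-DMa was seen in 45.8% of the thinned Mpo cells of FACS BFU-E, against 4.58% of the other thinned cells, with median depths of 27208 and 33808 UMIs. Free RNA was not measured apart from the cells.

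The PE pools were also set against the FACS pools. At 20 CPM or more, 0 of 5 members were past 1.5-fold in PE-low over FACS BFU-E, where 0.515% of all genes were lower and 0.391% higher. In PE-high over FACS CFU-E it was 0 of 4, where 0.148% of all genes were lower and 0.759% higher. So few genes of any kind were past 1.5-fold here that nothing is read from these counts. B2m had ratios of 0.951 (0.875 to 1.03) and 1.16 (1.03 to 1.29) in these comparisons, and H2-K1 of 0.834 (0.749 to 0.928) and 1.06 (0.923 to 1.22). H2-T22, at a lower level, had 10.1 CPM in PE-high and 6.26 CPM in FACS CFU-E (ratio 1.61, interval 1.11 to 2.39). H2-DMa was at 23.0 CPM in PE-low, against 16.4 CPM in FACS BFU-E, with their ratio at 1.40 (1.10 to 1.79). That ratio was 2.14 (1.33 to 3.53) without the Mpo cells. Monocyte and macrophage markers were at 60.1 CPM in the same cells of PE-low, against 15.1 CPM in those of FACS BFU-E, and the part of monocyte cells in this ratio among Mpo-low cells was not tested. With all Mpo cells kept and monocyte-marker cells left out, the H2-DMa log2 ratio was 0.37, beside 0.49 with all cells.

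The unnamed cells of the CITE-seq library have no stage in the annotation, so they enter no comparison. B2m was at 80.3 CPM there, H2-K1 at 44.2 CPM, H2-D1 at 66.4 CPM and H2-Ke6 at 23.8 CPM. Tap1 was at 2.97 CPM and H2-Ab1 at 7.68 CPM. Of these cells 3.18% carried 5 or more Mpo UMIs.

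Genes that act with the members were followed as lists. Of 12 genes for class I loading and the proteasome, 9, 10 and 9 were compared in the FACS, PE and CS pairs, and 4, 4 and 2 were lower past 1.5-fold, where 10.2%, 7.55% and 9.38% of all genes were lower. None was higher in any pair, and the list's median log2 ratio was -0.38, -0.30 and -0.15, beside 0.02, 0.00 and 0.05 over all genes. Psmb8, a catalytic subunit of the immunoproteasome, had the widest contrast of the list. It was at 1.44, 20.4 and 3.83 CPM in the later pools, against 125, 131 and 118 CPM in the earlier ones, at ratios of 0.0115, 0.155 and 0.0325. The Psmb8 ratios without the Mpo cells were 0.0307, 0.0979 and 0.0323. Psmb9, another such subunit and a neighbour of Tap1, was at 0.963, 7.45 and 1.37 CPM in the later pools, against 34.7, 37.3 and 33.4 CPM in the earlier ones; it was picked after its values were seen. Psmb8 in the FACS and CS pairs and Psmb9 in the PE pair were under 20 CPM in the later pool. They were compared only through the earlier pool, so the list's counts favour calls of lower. Psme1, an activator subunit of the proteasome, had ratios of 0.421, 0.517 and 0.485. Psme2, its partner, was at 0.609, 0.630 and 0.775, and Calr, a chaperone of the loading complex, at 0.596, 0.793 and 0.792. With the Mpo cells left out, 2 of 9 genes of the list were lower in each pair, Psmb8 and Psme1, while Psme2 and Calr lay inside 1.5-fold and Psmb9 was under the level minimum. The list's median log2 ratio was then -0.15, -0.13 and 0.12.

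Of the interferon-induced list of 16 genes, 4 were compared, and all 4 were lower past 1.5-fold in each pair, beside 10.2%, 7.55% and 9.38% of all genes. Ifitm3, which blocks virus entry, had ratios of 0.0640, 0.162 and 0.0877, and Bst2, which tethers virus particles, 0.465, 0.499 and 0.399. Without the Mpo cells 3, 4 and 3 of these genes were lower, beside 7.52%, 6.24% and 7.36% of all genes. Of the 16 interferon signalling genes 7, 7 and 6 were compared, with 2, 3 and 2 lower and 0 higher, beside 10.2%, 7.55% and 9.38% of all genes lower. Without the Mpo cells 1 of 6 was lower in each pair, Ifngr1, beside 7.52%, 6.24% and 7.36% of all genes, and the median log2 ratio of the list was 0.07, -0.17 and -0.14. Ifngr1, a receptor chain for interferon gamma, had ratios of 0.424, 0.570 and 0.642. Irf8, a factor of monocyte and dendritic cell development, had 0.0123, 0.170 and 0.229, the last from a pair under the level minimum. The X and Y box factors bind the promoter boxes described above. Of 8 compared, 1 was lower past 1.5-fold in the FACS pair, where 10.2% of all genes were, and 0 in the PE and CS pairs. That gene was Nfya, at a ratio of 0.491, beside 0.740 in the PE and 0.682 in the CS pair.

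Genes of class II processing moved both ways. Of 6 compared, 2, 1 and 2 were lower and 3 higher in each pair, those higher being Ctsb, Ifi30 and March8. Of all genes 10.2%, 7.55% and 9.38% were lower and 8.66%, 5.87% and 9.99% higher. Ifi30, a reductase of the endosome, was at 176, 147 and 146 CPM in the later pools, against 49.9, 87.1 and 25.9 CPM in the earlier ones, at ratios of 3.52, 1.69 and 5.63. Ctsc, a protease that activates granule enzymes, had ratios of 0.319, 0.315 and 0.541. No class I-like gene outside the H2 names reached the level to be compared.

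The members' chromosomal neighbours were followed in the same way. Of 42 other genes of the MHC region in the table, 29, 27 and 26 were compared in the FACS, PE and CS pairs, and 2, 1 and 3 were lower past 1.5-fold, with 0 higher, beside 10.2%, 7.55% and 9.38% of all genes lower. Their median log2 ratios were 0.03, -0.01 and 0.11, beside 0.02, 0.00 and 0.05 over all genes. Clic1, a chloride channel gene, was lower past 1.5-fold in all 3 pairs, at 0.555, 0.611 and 0.563.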

How the data were processed

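Single-cell RNA was measured in 2 libraries from fetal liver progenitors. Reads were processed with Cell Ranger 4.0.0 and Scanpy against mm10, per the submitters' processing notes. The deposited matrix holds natural log values, ln(1 + count per 10000) per gene and cell, over 17608 genes and 3357 cells. Whole UMIs were recovered from it by undoing the log and scaling: 100% of 16419767 values above 0 lay within 0.02 of a whole number. How the authors filtered cells, treated doublets and set the pool names is not stated in the labels or file headers, and no doublet caller was run.

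UMIs were summed per pool and given as CPM of the pool's total. All intervals are at 95% and cover counting error only: exact Poisson for levels, Clopper-Pearson for shares, and the exact binomial interval conditional on the sum for ratios. A gene was compared where the mean of the pair was at least 20 CPM, and called past 1.5-fold. A gene could therefore pass through its higher pool alone. The floor for a count of 0 was 3 UMIs. Cells were thinned to 15000 UMIs for shares of cells. The members and lists were chosen with earlier results of these data known. Named list genes were up to 4 per list by mean absolute log2 ratio, with a mean of at least 20 CPM over the 6 pools. Methods were tested on simulated data. Python 3.11.15, numpy 2.4.6, pandas 2.3.3, scipy 1.17.1 and matplotlib 3.10.9 were used.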

Additional observations from a re-analysis of the deposited data

Results flagged for a closer look

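In all, 4 genes with 0 UMIs in all 6 named pools had UMIs in the unnamed cells of the CITE-seq library, which entered no comparison. The unnamed cells number 2136 and hold 62266906 UMIs, so a count of 0 allowed only 0.0482 CPM in them, against 0.273 to 1.01 CPM in the named pools. Above that floor were Ciita at 0.161 CPM, H2-Aa at 2.20 CPM and H2-T3 at 0.0964 CPM, while H2-Q2 lay under it with 2 UMIs. The levels of Ciita and H2-T3 lie below every such floor of a named pool. That of H2-Aa lies above all of them, and 2 cells carried 126 of its 137 UMIs. In the other 2134 unnamed cells H2-Aa was at 0.177 CPM and Ciita at 0.0321 CPM, below every such floor of a named pool.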

How the results depend on the processing

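Of 847 member log2 ratios recomputed under the alternatives, 800 stayed inside the 95% interval of the reported value and 47 moved outside it. In all, 48 changed sign, none of them of a member past 1.5-fold at 20 CPM or more. Tapbp accounts for 13, with ratios of 1.16 and 1.09 in the FACS and PE pairs without Mpo cells, beside 0.959 and 0.993. H2-DMa in PE-high over FACS CFU-E had a log2 ratio of 1.34 with all cells and -0.05 without Mpo cells. At 5 CPM, 8 members were past 1.5-fold in the FACS pair (26.6% of all genes, in either direction), 7 in the PE pair (21%), 9 in the CS pair (27.6%), 1 in PE-high over FACS CFU-E (3.12%) and 7 in the Mpo split of PE-low (33%), and 9 had later pools all below earlier ones (37.5% above or below). With no minimum the counts were 16 (44.5%), 15 (43.8%), 13 (46.4%), 11 (29.3%), 16 (49.1%) and 14 (34.1%) in that order, with 6 in PE-low over FACS BFU-E (24.3%) and 14 in the Mpo split of FACS BFU-E (44.7%). At 50 CPM the Mpo splits of FACS BFU-E and PE-low gave 2 and 1. The PE pair's count of 2 was 1 without cells with 5 or more Mpo UMIs, 0 without cells with any, 1 under either scaling, 0 at 2-fold and 1 without cells carrying monocyte markers. In the Mpo split of FACS BFU-E the count of 5 was 2 when split at 1 Mpo UMI, 2 at 2-fold and 3 without monocyte-marker cells. Thinned cells gave 1 member, H2-DMa, in PE-low over FACS BFU-E. Scaling by the median ratio set the PE pair's log2 factor at -0.11 and trimmed means at -0.15, so PE ratios below 1 came closer to 1. The CS BFUE split was added after the data were seen. Causes were not tested. No paired analysis was possible because each pool is 1 sample and no test was run. Depth limits the 15 members under 1 CPM.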
